A study of Mus musculus with 2 samples.

Results

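The 31 genes described here encode the enzymes that make cholesterol and fatty acids and the proteins that control their transcription. They are the entries of the deposited gene table that carry 1 of 31 listed names, and each name was found at 1 of 54680 loci. The sterol branch held 19 of them, the fatty acid branch 7, and 5 were regulators. RNA sequencing measured expression in the line CT26, a colon cancer line derived from a BALB/c mouse. The group CT26shSetdb1 received, by lentivirus, a short hairpin RNA directed at Setdb1, a histone methyltransferase, and is labelled as differentiated. The group CT26shCtrl received virus with the vector alone. Both were grown for 6 days in medium with fetal bovine serum, a source of lipids, and each group was 1 library; they are called shSetdb1 and shCtrl below. Every difference below therefore lies between 2 libraries and has no replicate check, and no p-value was computed. In bulk RNA, fewer expressing cells and less RNA per cell cannot be told apart.

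Cholesterol is built from acetyl-CoA through mevalonate, isoprenoid pyrophosphates, squalene and lanosterol. Fatty acids are built from the same acetyl-CoA through malonyl-CoA, and are then elongated and desaturated. Transcription of both routes is driven by the sterol regulatory element-binding proteins (SREBPs), which are held in the endoplasmic reticulum by Insig proteins when sterols are plentiful and are escorted to the Golgi by Scap for cleavage when sterols are scarce. SREBP2, from Srebf2, acts mainly on sterol genes, and SREBP1, from Srebf1, mainly on fatty acid genes.

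The branches lay apart in these libraries. Of the 7 fatty acid genes, 6 were lower in shSetdb1, with a median log2 ratio of -0.46. Of the 16 sterol genes that reached 1 FPKM, 11 were higher and 5 lower, with a median of 0.05. FPKM is fragments per kilobase of gene length, here divided by 1 depth common to both libraries. FPKM ratios therefore carry the 1.03 ratio of the read totals, knockdown over control. Scaled by each library's own read total, 8 sterol genes were higher and 8 lower. Log2 ratios are of (FPKM + 1), knockdown over control, which understates the change of low genes. Summed over its members, the fatty acid branch went from 595.6 to 425 FPKM (a ratio of 0.714) and the sterol branch from 214 to 232 FPKM (a ratio of 1.08). Scaled by own read totals, these ratios were 0.691 and 1.05. On the (FPKM + 1) scale no member reached 2-fold in either direction. In FPKM alone Elovl6 was at 48.5% of its control level and Fdps, under 1 FPKM in both libraries, at 557%. On the (FPKM + 1) scale, over the 10671 genes that reached 1 FPKM in either library, 6.81% were 2-fold higher, 4.85% were 2-fold lower, and 11.7% were either. At 1.5-fold, 4 of the 28 members that passed this filter were higher (Acat2, Dhcr7, Acss2 and Insig2) and 3 lower (Acly, Scd1 and Insig1). Over all genes these shares were 16.9% and 14.3%, so the number of members past 1.5-fold was near the background. The share of all genes with a ratio under 0 was 50.0%, and above 0 it was 49.6%.

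The libraries held 18421604 reads (control) and 19045830 reads (knockdown), as whole reads recovered from the deposited values. Setdb1, the targeted gene, was at 10.4 FPKM in shCtrl and 2.47 FPKM in shSetdb1, a log2 ratio of -1.72. Of 11 colon epithelial markers, Epcam, Cdh1, Cdx1 and Lgr5 had no reads in either library, and of the rest only Krt18, Krt19 and Krt20 reached 1 FPKM. The summed reads of these 11 markers were 1216 in shCtrl and 3795 in shSetdb1. Most of them came from Krt18 (1016 and 2423) and Krt20 (183 and 1285), while Muc2 went the other way (3 and 1). The part of these markers in the results was not tested. Among leukocyte and endothelial markers only Ptprc had any reads, 0 in shCtrl and 4 in shSetdb1. Read ratios are relative to each library's total. The interval after each is its 95% exact (Clopper-Pearson) binomial interval and covers counting error only, since amplified reads without molecular identifiers are not independent molecules.

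**Figure D1:**
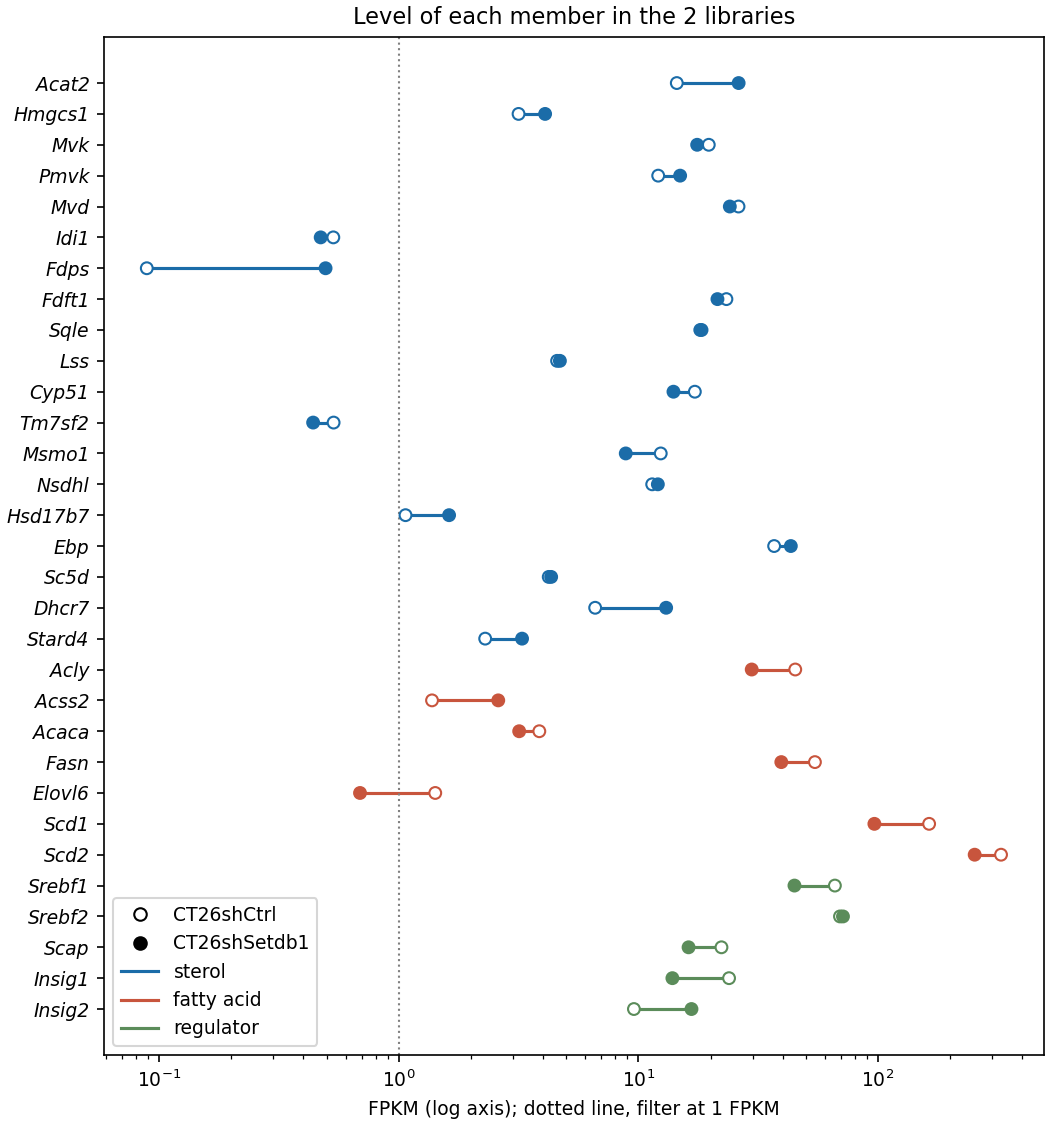
Level of each of the 31 members in FPKM on a log axis, with an open circle for shCtrl and a filled circle for shSetdb1, coloured by branch. Scd2 and Scd1 are the highest members in both libraries, and Idi1, Fdps and Tm7sf2 lie under the dotted line at 1 FPKM in both.

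Promoters bear on these genes because SREBPs act together with the factor NF-Y, which binds the box CCAAT. RefSeq promoter windows (GRCm38.p6, 250 bases before to 50 bases after a start) were found for 25 of the 31 members, as 33 windows. Stard4, Fdps, Fdft1, Sqle, Scd1 and Scd2 had no entry. The box CCAAT, on either strand, was in 22 of the 33 windows (66.7%), beside 37.4% of all 32851 windows in the table and 38.2% of the windows of genes at 1 FPKM or more. By gene it was found in 14 of 15 sterol genes, 3 of 5 fatty acid genes and 4 of 5 regulators. A gene was counted if any of its windows held the box. The shares of all windows are therefore not a background for these counts, and a share by gene is not given. Counted on the gene's own strand only, it was in 33.3% of the member windows and 21.1% of all windows.

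Of 3 other motifs, the GC box was the most frequent. The GC box GGGCGG was in 75.8% of the member windows, beside 35.7% of all windows but 65.2% of those of genes at 1 FPKM or more. The E-box CACGTG was in 18.2%, beside 7.15% and 10.5%. The sterol regulatory element core TCACNCCAC was in 1 member window, that of Hmgcs1, and in 1.24% of all windows. Other forms of the element were not searched. A match describes letters in a window and is not a measured binding site.

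5 windows are shown, for the gene with the element core (Hmgcs1), the lowest regulator (Insig1), the sterol gene without the box (Acat2) and 2 lower fatty acid genes (Acly and Fasn). Capitals mark the box CCAAT or its reverse complement ATTGG and, in Hmgcs1, also the element core TCACCCCAC; each is written 5′ to 3′ on the strand of the gene.
Hmgcs1, chr13:119690101-119690400, plus strand: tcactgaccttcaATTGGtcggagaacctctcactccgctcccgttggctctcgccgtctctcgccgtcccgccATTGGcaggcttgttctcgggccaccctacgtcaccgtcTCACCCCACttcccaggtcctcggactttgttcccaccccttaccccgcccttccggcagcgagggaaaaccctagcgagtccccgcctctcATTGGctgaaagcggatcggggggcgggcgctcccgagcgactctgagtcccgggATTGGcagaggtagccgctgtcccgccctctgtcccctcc
Insig1, chr5:28071162-28071461, plus strand: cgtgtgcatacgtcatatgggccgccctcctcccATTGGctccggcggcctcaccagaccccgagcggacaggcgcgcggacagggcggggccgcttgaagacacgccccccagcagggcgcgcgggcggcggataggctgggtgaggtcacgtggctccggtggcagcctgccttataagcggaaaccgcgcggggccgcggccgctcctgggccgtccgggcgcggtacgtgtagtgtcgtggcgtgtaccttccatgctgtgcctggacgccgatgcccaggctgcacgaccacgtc
Acat2, chr17:12960676-12960975, minus strand: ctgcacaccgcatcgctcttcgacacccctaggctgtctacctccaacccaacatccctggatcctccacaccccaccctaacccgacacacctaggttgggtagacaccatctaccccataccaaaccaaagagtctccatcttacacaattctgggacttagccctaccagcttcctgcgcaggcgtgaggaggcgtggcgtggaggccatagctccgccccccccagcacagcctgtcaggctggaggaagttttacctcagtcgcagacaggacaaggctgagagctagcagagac
Acly, chr11:100527951-100528250, minus strand: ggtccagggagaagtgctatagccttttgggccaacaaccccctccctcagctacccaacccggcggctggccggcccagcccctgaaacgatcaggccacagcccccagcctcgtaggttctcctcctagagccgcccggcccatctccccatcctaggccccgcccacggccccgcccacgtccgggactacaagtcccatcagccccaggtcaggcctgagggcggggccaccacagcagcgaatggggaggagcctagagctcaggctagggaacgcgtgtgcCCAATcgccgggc
Fasn, chr11:120824498-120824797, minus strand: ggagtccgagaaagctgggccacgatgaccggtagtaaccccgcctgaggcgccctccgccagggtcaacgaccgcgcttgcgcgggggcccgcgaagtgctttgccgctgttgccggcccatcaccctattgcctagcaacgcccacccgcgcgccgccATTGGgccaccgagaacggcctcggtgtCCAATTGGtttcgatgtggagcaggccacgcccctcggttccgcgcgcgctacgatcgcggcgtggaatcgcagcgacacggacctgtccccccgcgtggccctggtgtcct
In the Hmgcs1 window the element core lay 137 to 129 bases before the start, among 4 boxes. Fasn had 3 boxes, of which 2 overlap, and Insig1 and Acly 1 each. The box of Acly and 1 of the 4 boxes of Hmgcs1 lay after the start. The Hmgcs1 and Fasn genes, with 4 and 3 boxes, differed in opposite directions (read ratios of 1.25 and 0.700). A relation between boxes and ratios was not tested.

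The early sterol enzymes carry acetyl-CoA to squalene. Acat2, the cytosolic thiolase that makes acetoacetyl-CoA (chromosome 17, 12942890 to 12960747), was at 14.5 FPKM (689 reads) in shCtrl and 26.2 FPKM (1248 reads) in shSetdb1. Its log2 ratio was 0.81 and its read ratio 1.75 (1.60 to 1.93). Hmgcs1, which adds the next acetyl unit to form HMG-CoA (chromosome 13, 119690379 to 119708260), was at 3.16 and 4.08 FPKM, from 272 and 351 reads. Its read ratio was 1.25 (1.06 to 1.47). These 2 genes were thus both higher in shSetdb1, Acat2 by more than Hmgcs1, and their intervals did not overlap.

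The mevalonate kinases and the decarboxylase that follow differed by less than 1.5-fold. Mvk, mevalonate kinase, was at 19.7 FPKM in shCtrl and 17.6 FPKM in shSetdb1, with a read ratio of 0.865 (0.789 to 0.948). Pmvk, phosphomevalonate kinase, was at 12.1 and 14.9 FPKM, with a read ratio of 1.19 (1.04 to 1.37). Mvd, which decarboxylates the product to isopentenyl pyrophosphate, was at 26.2 and 24.1 FPKM, with a read ratio of 0.890 (0.809 to 0.978). All of these intervals leave out 1, but in different directions for neighbouring steps. Fdft1, squalene synthase, was at 23.3 and 21.4 FPKM with a read ratio of 0.887 (0.830 to 0.949). Its gene model overlaps Ctsb, on the opposite strand, which had 25994 and 29760 reads. Strand use in counting is not given in the sources used here, so reads in the overlap could belong to either gene.

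Idi1 and Fdps, which act between Mvd and Fdft1, had few reads. Idi1, the isopentenyl pyrophosphate isomerase, had 35 reads in shCtrl and 31 in shSetdb1, both under 1 FPKM, and its read ratio of 0.857 had an interval of 0.511 to 1.43. Fdps, farnesyl pyrophosphate synthase (chromosome 3, 89093588 to 89101959), had 7 and 39 reads, which is 0.0888 and 0.495 FPKM, and a read ratio of 5.39 (2.38 to 14.3). Most reads annotated with this enzyme's name stood at other loci. The processed pseudogene Gm3571 on chromosome 10 had 334 reads in shCtrl and 238 in shSetdb1. A further pseudogene, Gm5873 on chromosome 6, had 46 and 27 reads. The transcript 2610316D01Rik on chromosome 3, which the authors' table annotates with the same protein name, had 10 and 1.

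In the GENCODE M21 transcripts, Gm3571 aligned to an Fdps transcript over 1062 bases at 98.9% identity, and Gm5873 over 1066 bases at 96.7%. How reads that fit both were assigned is not given in the sources used here. The transcript 2610316D01Rik aligned over only 141 bases, 15% of its length, at 86.5% identity. Its few reads are part of the sum but may not be reads of Fdps. Added up over all 4 loci, the reads were 397 in shCtrl and 305 in shSetdb1. The read ratio of the sum was 0.743 (0.638 to 0.865), below 1, where that of the Fdps locus alone was above 1. The direction of Fdps therefore depended on which loci were counted. Of the other members, Acaca shared its protein match with the pseudogene Gm5182 (244 and 214 reads, 99.2% identity over 6118 bases), and Acat2 with Acat3 (11 and 20 reads). Adding those reads left the log2 ratios at -0.21 and 0.82. Idi1 shared its match with 5 other loci, of which only the pseudogene Gm13502 had reads (3 and 4). Gm13502 aligned to an Idi1 transcript over 684 bases at 100% identity. The sum had a log2 ratio of -0.04, beside -0.06 for Idi1 alone. Tm7sf2 shared its match with Vps51, a separate protein-coding gene that overlaps it on the same strand and had 43 and 22 reads. Only 532 bases, 20% of the Vps51 transcript, aligned to Tm7sf2, at 100% identity. The sum of both genes is therefore not a level of Tm7sf2. That sum had a log2 ratio of -0.24, beside -0.09 for Tm7sf2 alone. The read ratio of the sum was 0.664 (0.481 to 0.914), an interval below 1 where that of Tm7sf2 alone holds 1.

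**Figure D2:**
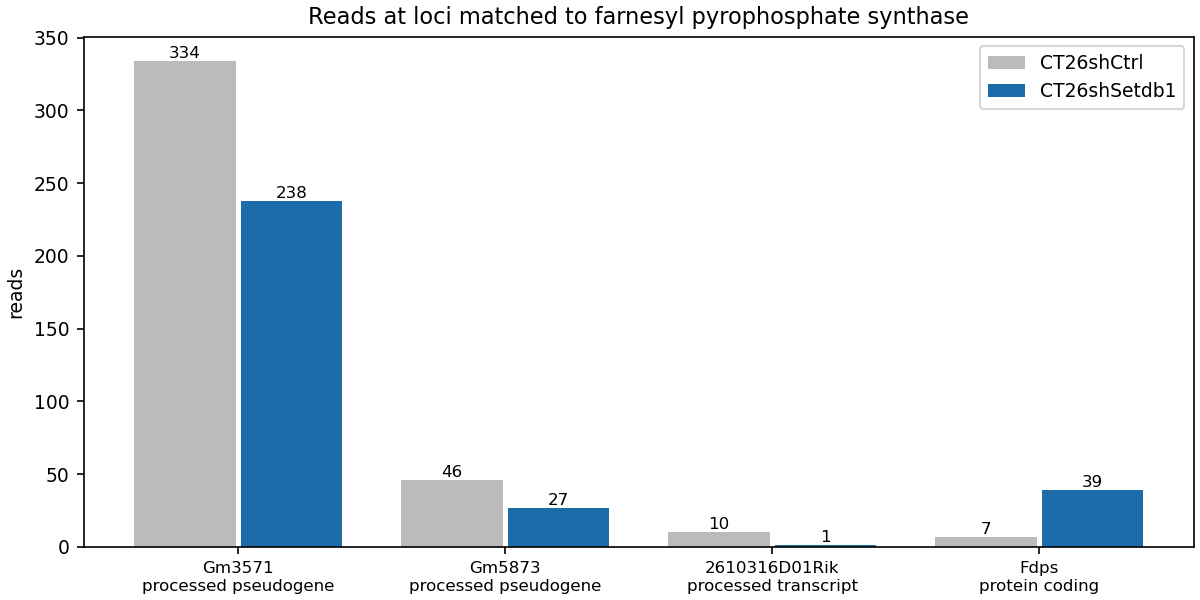
Bars of reads at the 4 loci annotated with the name farnesyl pyrophosphate synthase, grey for shCtrl and blue for shSetdb1. Of these, 2610316D01Rik aligned to Fdps over only 141 bases. The pseudogene Gm3571 holds most of the reads in both libraries (334 and 238), and Fdps itself 7 and 39.

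The late sterol enzymes turn squalene into cholesterol. Sqle, squalene epoxidase (chromosome 15, 59315077 to 59331192), had 1882 reads in shCtrl and 1905 in shSetdb1, 18.1 and 18.3 FPKM. Lss, which closes the rings to form lanosterol, was at 4.58 and 4.70 FPKM. The read ratios of Sqle (0.979, 0.918 to 1.04) and Lss (0.993, 0.906 to 1.09) both had intervals that hold 1. So did those of Nsdhl (1.02, 0.913 to 1.14) and Sc5d (0.990, 0.858 to 1.14), a dehydrogenase of demethylation and the late desaturase.

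Cyp51 and Msmo1, which oxidise methyl groups of lanosterol and its product, were the lowest of the sterol branch. Cyp51 was at 17.2 FPKM (1422 reads) in shCtrl and 14.0 FPKM (1158 reads) in shSetdb1, a read ratio of 0.788 (0.728 to 0.852). Msmo1 (chromosome 8, 64718139 to 64733792) was at 12.4 FPKM (1426 reads) and 8.85 FPKM (1019 reads), which gave a log2 ratio of -0.44 with a read ratio of 0.691 (0.637 to 0.750). Cyp51 overlaps Akap9 on the opposite strand, which had 361 and 267 reads.

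Dhcr7, Hsd17b7 and Ebp were higher in shSetdb1. Dhcr7, a reductase of the last step to cholesterol (chromosome 7, 143823145 to 143848410), was at 6.60 FPKM (719 reads) in shCtrl and 13.1 FPKM (1422 reads) in shSetdb1. Its log2 ratio of 0.89 was the highest of the 28 members that passed the filter, with a read ratio of 1.91 (1.75 to 2.10). Hsd17b7, the ketoreductase of the demethylation steps, was at 1.07 and 1.62 FPKM, a read ratio of 1.47 (1.14 to 1.91). Ebp, the sterol isomerase and the highest sterol gene in both libraries, was at 36.8 and 43.2 FPKM, a read ratio of 1.14 (1.06 to 1.21). Tm7sf2, the sterol reductase after Cyp51, had 56 and 46 reads, under 1 FPKM in both, and a read ratio of 0.795 (0.526 to 1.19). Stard4, a carrier that moves sterol between membranes, was at 2.29 and 3.27 FPKM, a read ratio of 1.38 (1.17 to 1.63).

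Within the sterol branch there was no common direction. The median log2 ratio was 0.08 over the 6 early enzymes at 1 FPKM or more and 0.03 over the 9 late enzymes, beside -0.00039 over all genes. Counting intervals were above 1 for 7 of the 16 genes, below 1 for 5 and held 1 for 4. Over all genes, intervals were above 1 for 35.2% and below 1 for 40.6%. The split of 11 higher and 5 lower became 8 and 8 under upper-quartile scaling, under scaling without the 100 highest genes and under scaling by each library's own read total, with Sqle, Lss and Sc5d changing sign.

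**Figure D3:**
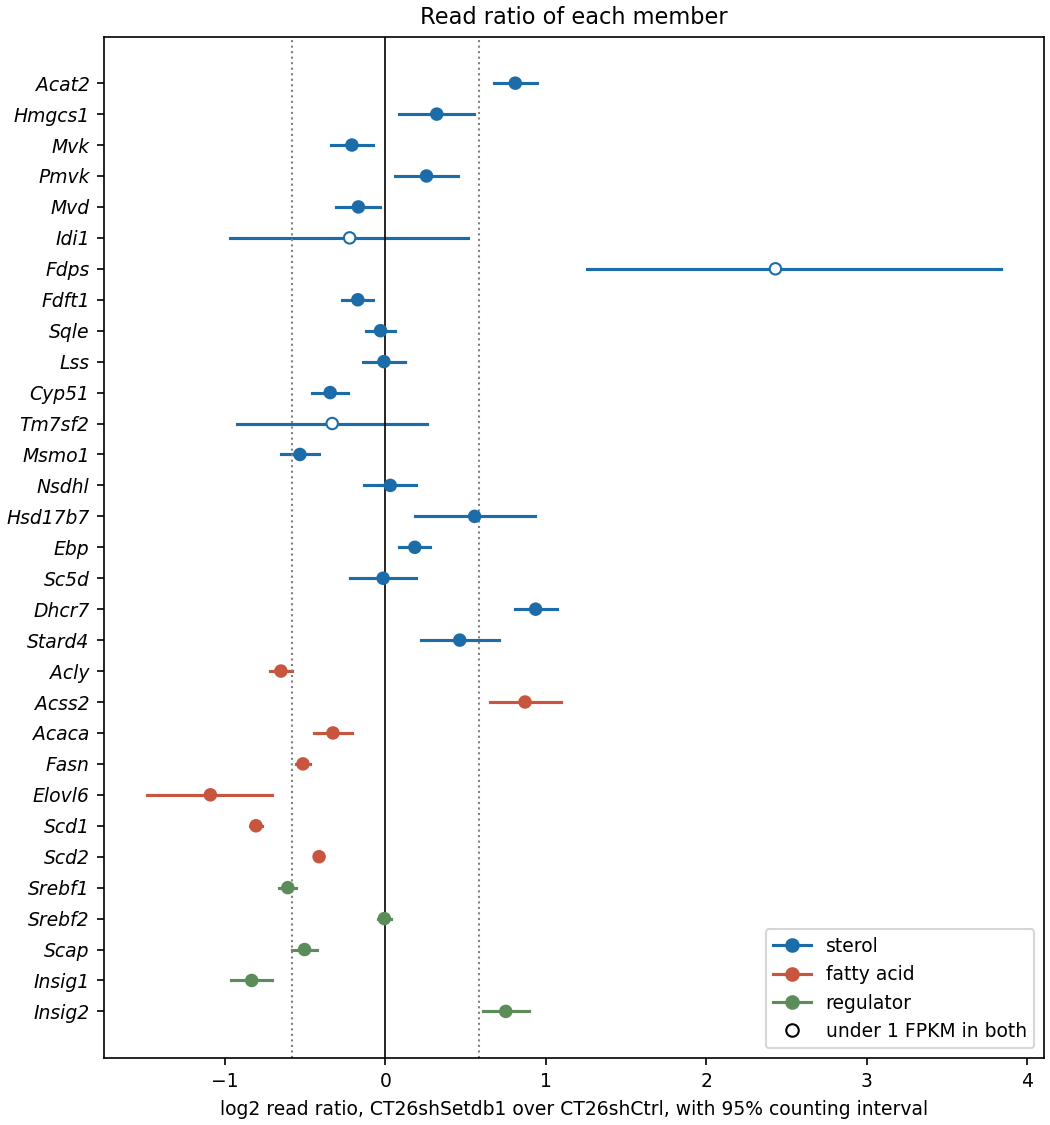
Log2 read ratio of each member, knockdown over control and relative to each library's total, with the 95% counting interval as a line and dotted lines at 1.5-fold. All fatty acid genes except Acss2 lie left of 0, the sterol genes lie on both sides, and Fdps, at 7 and 39 reads, has the widest interval.

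The fatty acid genes supply acetyl-CoA, join it into chains and modify the chains. Acly, which cleaves citrate to cytosolic acetyl-CoA (chromosome 11, 100476353 to 100528000), was at 45.1 FPKM (4462 reads) in shCtrl and 29.7 FPKM (2937 reads) in shSetdb1. Its log2 ratio was -0.59, at the 1.5-fold threshold, and its read ratio 0.637 (0.607 to 0.667). Acss2, which makes acetyl-CoA from acetate (chromosome 2, 155517948 to 155585724), was at 1.38 FPKM (262 reads) and 2.60 FPKM (495 reads). It was the only member of the branch that was higher, with a log2 ratio of 0.60 (read ratio 1.83, 1.57 to 2.13). Acss2 overlaps Gss on the opposite strand, which was lower in shSetdb1, at 822 reads against 919. The enzymes that feed the acetyl-CoA pool from citrate and from acetate thus differed in opposite directions, with Acly the more abundant in both libraries.

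The chain-building enzymes were both lower. Acaca, the acetyl-CoA carboxylase that makes malonyl-CoA, was at 3.86 FPKM (1234 reads) in shCtrl and 3.18 FPKM (1017 reads) in shSetdb1, a read ratio of 0.797 (0.733 to 0.867). Fasn, fatty acid synthase (chromosome 11, 120805846 to 120824547), was at 54.5 FPKM (11178 reads) and 39.5 FPKM (8093 reads). Its log2 ratio was -0.46 and its read ratio 0.700 (0.680 to 0.721). The intervals of these enzymes did not overlap, Fasn being the lower ratio.

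Of the modifying enzymes, Scd1 and Scd2 held the highest levels of all members, and Elovl6 was among the lowest. Scd2, a stearoyl-CoA desaturase (chromosome 19, 44293676 to 44306864), was at 326 FPKM in shCtrl and 253 FPKM in shSetdb1, from 33292 and 25842 reads. Its read ratio was 0.751 (0.739 to 0.763). Scd1, its neighbour 87.6 kb away (44394451 to 44407709), was at 163 FPKM (14794 reads) and 96.5 FPKM (8744 reads), which gave a log2 ratio of -0.75 with a read ratio of 0.572 (0.557 to 0.587). Both desaturases were lower and Scd1 by more, so that Scd2 stood at 1.996 times the FPKM of Scd1 in shCtrl and 2.62 times in shSetdb1. Elovl6, the elongase that acts on palmitate, had 171 and 83 reads, 1.42 and 0.689 FPKM. Its read ratio of 0.469 (0.357 to 0.614) was the lowest of all members. Its log2 ratio on the (FPKM + 1) scale was only -0.52, and was -0.95 with a pseudocount of 0.1.

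Scd1 and Scd2 made up most of the branch's summed level, and the sum of the other 5 genes had nearly the same ratio. The sum was 489 FPKM in shCtrl and 350 FPKM in shSetdb1 for the desaturases, a ratio of 0.714. For the other 5 genes it was 106 and 75.6 FPKM, a ratio of 0.712. Most of that sum came from Fasn and Acly, at 54.5 and 45.1 FPKM in shCtrl. By gene, the mean log2 ratio was -0.24 over these 5 genes and -0.56 over the desaturases. Intervals were below 1 for 6 of the 7 fatty acid genes and above 1 for Acss2. Over all genes, they were below 1 for 40.6% and above 1 for 35.2%. Between the branch medians the difference, sterol minus fatty acid, was 0.51 on the log2 scale. It was not tested, since each group had 1 library.

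The regulators were not uniform. Srebf2, which encodes SREBP2 (chromosome 15, 82147181 to 82205379), was at 69.4 FPKM (9333 reads) in shCtrl and 71.4 FPKM (9604 reads) in shSetdb1. Its read ratio of 0.995 had an interval of 0.967 to 1.02, and its log2 ratio of 0.04 turned to between -0.0187 and -0.00669 under the 3 scalings that split the sterol genes 8 and 8. Srebf1, which encodes SREBP1 (chromosome 11, 60199089 to 60222581), was at 66.0 FPKM (6969 reads) and 44.8 FPKM (4726 reads), which gave a log2 ratio of -0.55 with a read ratio of 0.656 (0.632 to 0.681). The factor of the fatty acid branch was thus lower and that of the sterol branch within counting error, so Srebf2 went from 1.05 to 1.59 times the FPKM of Srebf1. Srebf1 overlaps Rai1 on the opposite strand, which had 1362 and 1175 reads.

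The proteins that escort and retain SREBPs differed among themselves. Scap, the escort, was at 22.2 FPKM (3096 reads) in shCtrl and 16.2 FPKM (2257 reads) in shSetdb1, a read ratio of 0.705 (0.668 to 0.745). Insig1, a retention protein whose own gene is an SREBP target (chromosome 5, 28071363 to 28078662), was at 23.9 FPKM (1384 reads) and 13.9 FPKM (803 reads). Its log2 ratio was -0.74 and its read ratio 0.561 (0.514 to 0.613). Insig2, the related retention protein (chromosome 1, 121304353 to 121332589), was at 9.58 FPKM (623 reads) and 16.6 FPKM (1083 reads), which gave a log2 ratio of 0.74 with a read ratio of 1.68 (1.52 to 1.86). The 2 Insig genes therefore changed order. Insig1 stood at 2.49 times the FPKM of Insig2 in shCtrl and at 0.833 times in shSetdb1.

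Genes around the members were taken from 8 lists of 112 genes, of which 86 reached 1 FPKM. Of these, 4 were at least 2-fold lower and 2 at least 2-fold higher, and at 1.5-fold the counts were 15 and 15. Over all genes, 4.85% were 2-fold lower and 6.81% 2-fold higher, and at 1.5-fold the shares were 14.3% and 16.9%. The same shares stand beside the counts of each list below. The genes with the highest and the lowest ratio of a list are named, except where not reported here.

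The first list joined genes that process or retain SREBPs with transcription factors that act beside them. Of its 12 genes at 1 FPKM, 10 were lower and 2 higher, with a median log2 ratio of -0.44, and 4 of the 12 (Nfya, Nfyb, Nfyc and Sp1) are such factors. Erlin1, which encodes a membrane protein of the endoplasmic reticulum that binds the SREBP complex, had 3082 reads in shCtrl and 559 in shSetdb1, 33.2 and 6.02 FPKM. Its log2 ratio of -2.28 was the lowest of all 8 lists. Rnf145, a sterol-responsive ubiquitin ligase, was highest at 1.11, from 1608 to 3647 reads. Mbtps1 and Mbtps2, the proteases that release SREBPs in the Golgi and named after their values were seen, had log2 ratios of -0.34 and -0.49. The factor genes Nfya, Nfyb and Nfyc, for the NF-Y subunits, and Sp1, named in the same way, had log2 ratios of -0.49, 0.23, -0.43 and -0.46.

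Genes of acyl chain elongation, desaturation and activation were spread widely. Of 21 genes, 13 were lower and 8 higher, with a median of -0.07, and 5 were at least 1.5-fold lower and 2 higher. Fads1, a desaturase of polyunsaturated fatty acids, was lowest, from 7414 reads to 2114 and from 115 to 32.7 FPKM, a log2 ratio of -1.78. Its neighbours on chromosome 19, Fads2 and Fads3, named after their values were seen, had log2 ratios of -0.75 and -0.76. Hacd1, a dehydratase of chain elongation, was highest at 0.98, from 106 to 248 reads.

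Fatty acid oxidation differed in the other direction from synthesis. Of 18 genes, 14 were higher and 4 lower, with a median of 0.33, and 5 were at least 1.5-fold higher and 0 lower. Eci1, an enoyl-CoA isomerase, was lowest at -0.49, from 810 to 570 reads. Cpt1a, the carnitine acyltransferase that admits fatty acids to mitochondria and named after its values were seen, was also lower, at -0.31.

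Genes of triglyceride synthesis and lipid droplets held the widest range. Hilpda, an inhibitor of lipolysis known to be induced by low oxygen, was highest at 1.82, from 785 to 2828 reads. Dgat2, which adds the last acyl chain to a triglyceride, was lowest at -1.85, from 545 to 110 reads. The median of the 13 genes was 0.29, with 10 higher and 3 lower.

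Isoprenoid genes had a median of -0.22 over 9 genes, 7 of them lower and 2 higher, and 3 were at least 1.5-fold lower and 0 higher. The highest was Fntb, a farnesyltransferase subunit, at 0.33. Fntb overlaps Churc1, which had 267 and 364 reads. Genes of the liver X receptor (LXR) axis and sterol efflux had a median of 0.04 over 7 genes, from -0.77 for Mylip, an LXR-induced ubiquitin ligase, to 0.78 for Npc2, a lysosomal cholesterol carrier. The mean of these LXR genes was -0.03. Lipid uptake genes had a median of 0.08 over 5, from -0.74 for Lrp1 to 0.69 for Scarb1, both lipoprotein receptors. Of 6 oxysterol enzymes, Cyp39a1 alone reached 1 FPKM, at 95 and 200 reads. Ch25h, the interferon-inducible cholesterol hydroxylase and named after its values were seen, had 0 reads in both libraries.

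**Figure D4:**
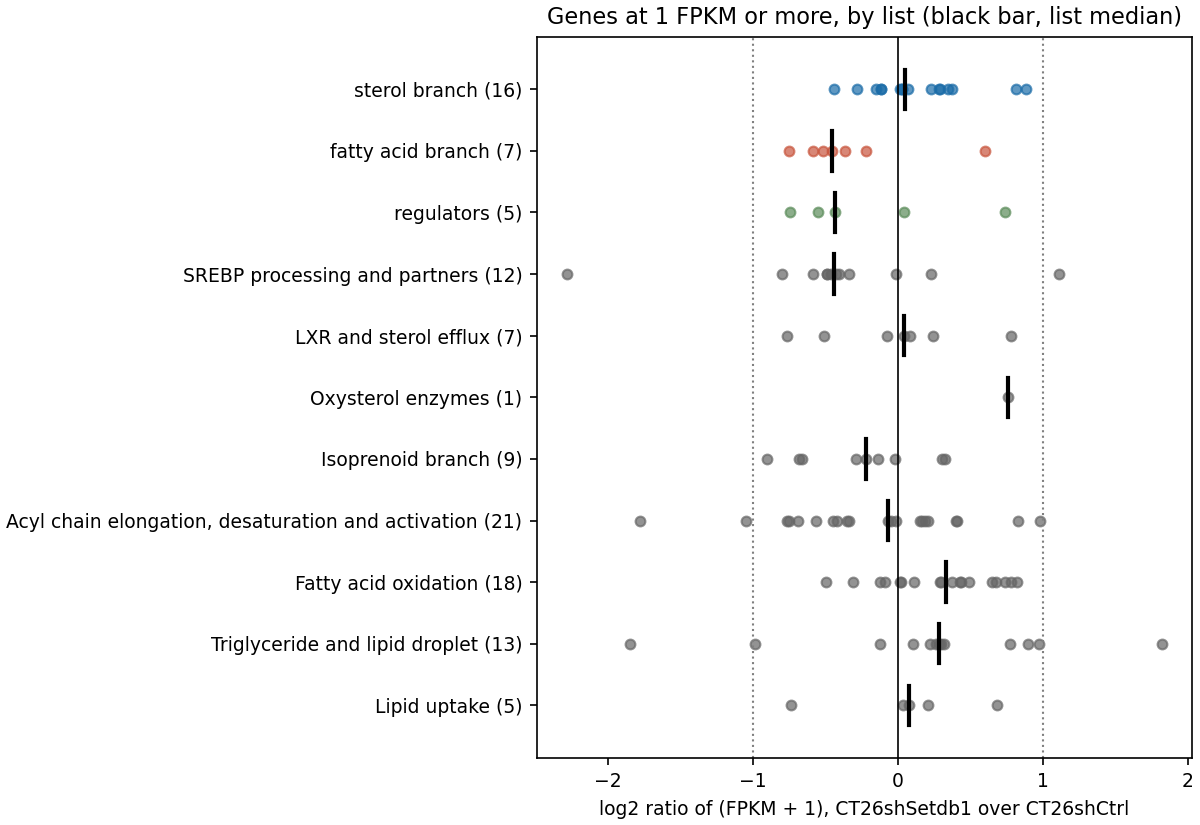
Log2 ratio of (FPKM + 1), knockdown over control, of each gene at 1 FPKM or more, by list, with the number of genes in parentheses, a black bar at the list median, a line at the median of all genes and dotted lines at 2-fold. The fatty acid branch lies at a median of -0.46 and the sterol branch at 0.05, and fatty acid oxidation lies at 0.33.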

How the data were processed

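RNA sequencing was analysed for 1 library of CT26shSetdb1 and 1 of CT26shCtrl, matched to the columns by library name. The authors deposited FPKM values with gene lengths for 54680 loci. Per the submitters' processing notes, CASAVA, HISAT2 and featureCounts 1.5.0-p3 were used with GRCm38; strand and multi-mapping settings are not given in the sources used here. FPKM times length over a common step gave whole reads (within 1e-06) for 100% of values above 0, with 1 depth of 18731117 reads for both libraries, so log2 ratios still carry the 1.03 ratio of the totals. Log2 ratios used a pseudocount of 1, and genes passed at 1 FPKM in at least 1 library. Coordinates are the deposited ones; those of Tm7sf2, Scd1 and Scd2 differ from GENCODE M21. Overlaps with other genes are given at 100 or more reads. The members, branches and lists were chosen with earlier results of these data known. Named genes were the members, Setdb1, and each list's highest and lowest gene. The extreme genes of 2 lists are not reported here. Alternatives covered pseudocount, filter, scaling, branch membership, threshold and mean. Added after seeing the data were sums over loci with the same Swiss-Prot entry name, removal of overlapping members and expressed genes as promoter background. Tools were blastn 2.17.0, scipy 1.17.1, pandas 2.3.3, numpy 2.4.6 and matplotlib 3.10.9 in Python 3.11.15, and the calculations were tested on simulated data.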

Additional observations from a re-analysis of the deposited data

How the results depend on the processing

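Of 77 alternative values of the 11 main results, 63 kept their direction and moved by less than the counting error (counts, by less than 1.5 times). The sterol median reversed to -0.00067 in scaling without the 100 highest genes; among the scalings this moved the median of all genes most, to -0.0522. When means replaced medians, the fatty acid branch went from -0.46 to -0.33 and the regulators from -0.43 to -0.19. The sterol branch went from 0.05 to 0.14. Without members that overlap another gene, the sterol median was 0.15 and the fatty acid median -0.49. At 1.5-fold, by construction, 3 members were lower and 4 higher, and 30 genes of the other lists passed in place of 6. At that threshold Acly was not among the lower genes under median-ratio scaling, and Srebf1 joined them and Acss2 left the higher genes under the other 3 scalings. Elovl6 joined the lower genes with a pseudocount of 0.1, where 18.8% of all genes were lower and 20.3% higher. With a pseudocount of 0.1, Setdb1 was at -2.04. By upper quartile, without the 100 highest genes and by own read totals, the summed ratios were 1.05, 1.04 and 1.05 for the sterol branch and 0.689, 0.685 and 0.691 for the fatty acid branch, as those factors make them. The promoter share of the box CCAAT was 33.3% on the gene's strand only, by construction. Of 217 alternative values of the 31 members, 201 stayed within counting error and 15 moved beyond it. Fdps reversed, to -0.31 with all matching loci added up. Sqle, Lss, Sc5d and Srebf2, whose intervals hold 1, also changed sign under scaling by upper quartile, without the 100 highest genes and by own totals, to between -0.0405 (Sqle) and -0.00669 (Srebf2). No paired analysis was possible because there is a single library on either side; leaving out a library was likewise not run. Depth limits Idi1, Fdps and Tm7sf2, with 98 and 116 reads in all. For Idi1 and Fdps, the unknown assignment of reads that also fit pseudogenes is a further limit.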

Other observations

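The following genes were chosen after their values were seen. Lbr encodes the lamin B receptor, which also has the sterol reductase activity that Tm7sf2 carries. It was at 16.5 FPKM (1474 reads) in shCtrl and 22.2 FPKM (1978 reads) in shSetdb1, a read ratio of 1.30 (1.21 to 1.39), where Tm7sf2 had 56 and 46 reads. Acat1, the mitochondrial thiolase related to Acat2, was at 11.1 and 13.1 FPKM, a read ratio of 1.15 (1.04 to 1.26), which does not overlap the interval of Acat2. Scd3, in the same chromosome 19 cluster as Scd1 and Scd2, had 84 and 53 reads, a read ratio of 0.610 (0.424 to 0.871). Hacd4, a dehydratase of chain elongation, had 99 reads in shCtrl and 1 in shSetdb1, a read ratio of 0.00977 (0.00024 to 0.0557). It stayed under 1 FPKM in both and overlaps Focad, which had 845 and 691 reads. Abcg1, a sterol exporter and LXR target, also under 1 FPKM, had 12 and 61 reads, a read ratio of 4.92 (2.62 to 10.0), while Abca1, an exporter of the same pathway, had 674 and 415 reads.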
